A study of Mus musculus with 54 samples.

Results

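A set of 10 textbook immediate early genes, of the 30031 genes in the count table, was followed through a day in the mouse suprachiasmatic nucleus (SCN), the hypothalamic pacemaker that daylight resets through the retina. They were listed by name, with no threshold on a measured value, although earlier results of these data were known when the list was drawn up: *Fos*, *Fosb*, *Fosl2*, *Junb*, *Egr1*, *Egr2*, *Egr3*, *Nr4a1*, *Arc* and *Npas4*. Of these, 9 encode transcription factors, whereas *Arc* encodes a synaptic, cytoskeleton-associated protein. The SCN was cut out by laser-capture microdissection from male C3H/HeH mice of 10-12 weeks, all labelled WT, for wild type. The mice were untreated and kept under 12 hr of light and 12 hr of dark, and 5 were pooled per biological replicate. Brains were taken at 6 zeitgeber times (ZT, hours after lights on), in the light at ZT2, ZT6 and ZT10 and in the dark at ZT14, ZT18 and ZT22, with 3 replicates (A, B and C) each. The 18 replicates were sequenced as 54 lane samples of amplified polyA RNA, and the lanes of a replicate were counted once.

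Immediate early genes are transcribed within minutes of a stimulus, without new protein synthesis, when kinases activate factors such as CREB, SRF and its ELK partners that already sit at their promoters. In neurons they report recent synaptic activity, and in the SCN light at night is known to induce *Fos*, *Egr1* and other members acutely. FOS and JUN proteins pair to form AP-1, EGR proteins are zinc finger factors, NR4A1 is an orphan nuclear receptor and NPAS4 is a bHLH-PAS factor induced by calcium entry in neurons.

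Each library held between 15412981 and 35820945 reads counted on genes, and Pearson correlations between replicates of a timepoint were between 0.901 and 0.977. Levels are CPM, counts scaled to a common library total after TMM normalization, given as mean ± SD of n = 3 replicates unless said otherwise. Adjusted p-values are from edgeR's quasi-likelihood test with Benjamini–Hochberg adjustment over all 18941 genes tested, and a gene is called below 0.05. All 10 genes passed the filter of at least 1 read in more than 6 replicates, *Egr2* and *Egr3* with reads in 13 of 18 replicates. The pooled replicates make p-values a measure of the spread between pools, and in bulk tissue fewer cells of a type cannot be told apart from less RNA per cell. The study names sequencing batch beside timepoint in the legend of its principal component plot, where ZT2 lies near ZT22, ZT6 near ZT10 and ZT14 near ZT18. These are called library pairs here for that closeness alone, since no label assigns a replicate to a batch. For a step from one pair to another, time and any batch that follows the pairs cannot be told apart. A second deposited table, normalized by the authors, held 100% of the reads of the count table at ZT14 for 9 of the 10 genes but between 91.0% and 99.9% of them at ZT6 for the 8 genes with reads there.

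The stretches upstream of 4 of the genes are printed because they are highest at different times of day, *Fos* and *Junb* in the light and *Egr2* and *Nr4a1* in the dark. They are the 150 bases before the RefSeq start on GRCm38.p6, 5′ to 3′ along the gene, and their windows hold no exon in GENCODE M21. Their positions are chr12:85473740-85473889 on the plus strand for *Fos*, chr8:84978749-84978898 on the minus strand for *Junb*, chr10:67537719-67537868 on the plus strand for *Egr2* and chr15:101266696-101266845 on the plus strand for *Nr4a1*. Capitals mark a cAMP response element (CRE) half-site, TGACG on either strand, a CArG box, the motif bound by SRF, and an EGR site, GCGNGGGCG on either strand.
*Fos*: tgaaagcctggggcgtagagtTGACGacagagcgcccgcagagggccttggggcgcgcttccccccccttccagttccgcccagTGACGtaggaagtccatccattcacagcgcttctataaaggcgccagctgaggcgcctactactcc
*Junb*: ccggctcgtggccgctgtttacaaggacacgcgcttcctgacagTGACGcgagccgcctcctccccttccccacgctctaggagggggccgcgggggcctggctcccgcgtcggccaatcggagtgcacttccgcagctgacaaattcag
*Egr2*: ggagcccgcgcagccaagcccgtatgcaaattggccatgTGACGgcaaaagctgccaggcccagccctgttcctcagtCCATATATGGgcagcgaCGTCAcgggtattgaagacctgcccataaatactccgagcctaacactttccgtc
*Nr4a1*: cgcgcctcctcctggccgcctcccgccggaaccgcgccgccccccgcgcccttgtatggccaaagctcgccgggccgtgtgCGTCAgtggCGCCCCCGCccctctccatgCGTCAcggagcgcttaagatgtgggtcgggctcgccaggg
The *Fos* stretch carries CRE half-sites at -129 to -125 and -66 to -62 from the start, and *Junb* carries one at -106 to -102. The *Egr2* stretch has a CArG box at -72 to -63 between CRE half-sites at -111 to -107 and -55 to -51. In *Nr4a1* an EGR site at -60 to -52 lies between CRE half-sites at -69 to -65 and -40 to -36. Upstream windows were searched for 7 of the 10 genes, and *Egr1*, *Egr3* and *Arc* were left out of the search. For *Egr1* this was because its chromosome was excluded for the listed genes. The motif counts that follow therefore do not cover *Egr1*, *Egr3* and *Arc*. Over the 250 bases upstream of RefSeq starts 6 of these 7 held a CRE half-site, *Fosl2* being the exception, against 17.8% of all 32851 entries. An EGR site was found for 3 of the 7 (*Fosl2*, *Fosb* and *Nr4a1*) against 4.70% of entries. A CArG box was found for *Egr2* alone of these 7, against 1.47% of entries. *Egr2* has 5 entries and so more sequence searched, with an E-box, CACGTG, in 1 of them (6.02% of entries). The whole CRE, TGACGTCA (1.55%), and the AP-1 site, TGANTCA (6.75%), were not in these windows. A match is a description of letters and says nothing about binding in these samples.

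The level of 9 of the 10 genes changed over the 6 timepoints, against 44.0% of all genes tested. *Fosb* was the exception (adjusted p = 0.186). The genes did not rise at one time: *Fosl2* had its highest mean at ZT2, *Fos* and *Junb* at ZT6, and the other 7 at ZT14, soon after lights off, where 18.6% of all genes had theirs. For 4 of those 7 (*Egr2*, *Egr3*, *Nr4a1* and *Npas4*) every ZT14 replicate lay above all 15 other replicates, which held for 2.48% of all genes at that time. The same separation held for *Fos* and *Junb* at ZT6 (1.83% of all genes) and for *Fosl2* at ZT2 (1.38%).

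**Figure D1:**
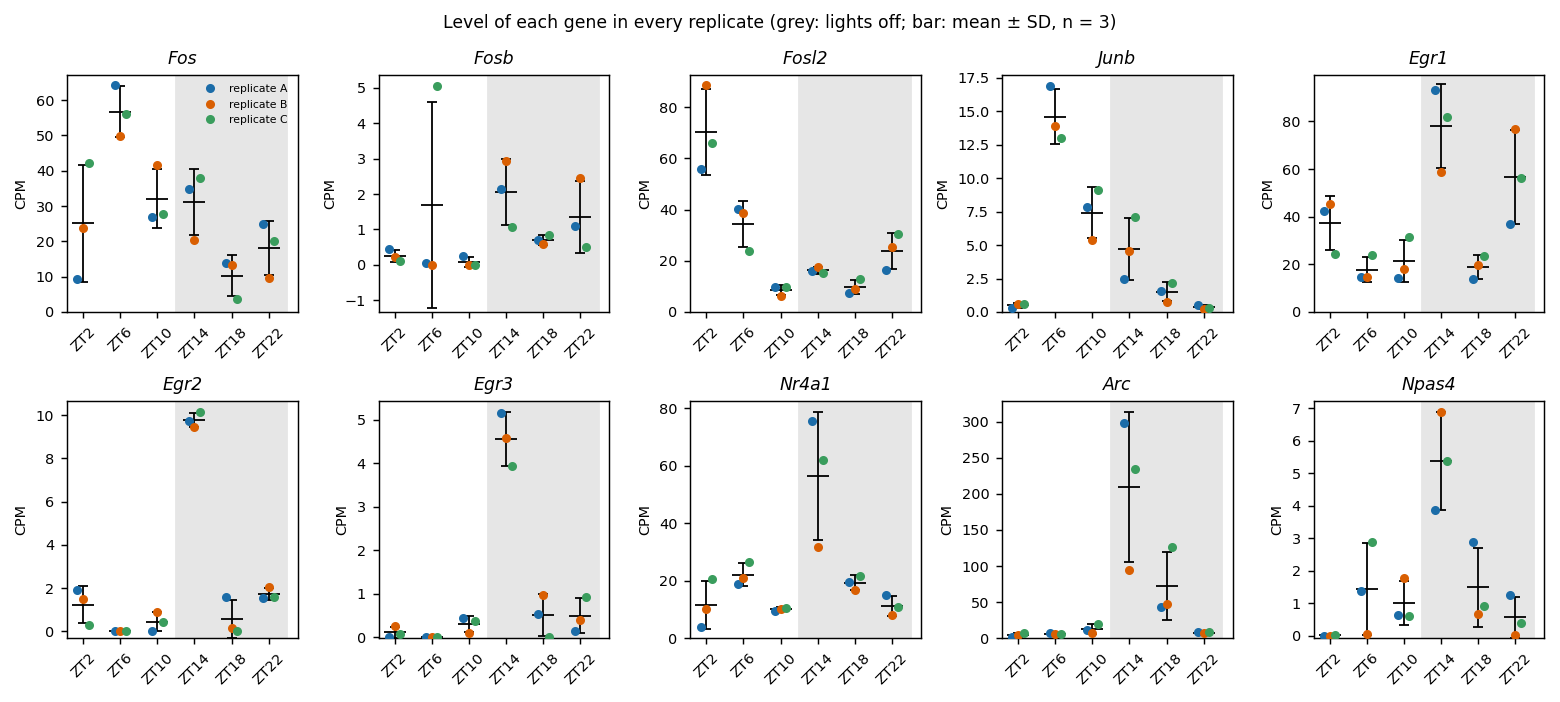
CPM (linear axes, one scale per gene) of the 10 genes at the 6 timepoints, with a point for each replicate, a bar for the mean ± SD of 3 replicates and grey for lights off. *Fos* and *Junb* peak at ZT6, *Fosl2* at ZT2, and the *Egr2*, *Egr3*, *Nr4a1* and *Npas4* points at ZT14 lie above all others of the same gene.

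Among the AP-1 genes, *Fos*, whose protein pairs with JUN proteins, was highest at midday. Its levels in replicates A, B and C were 64.2, 49.7 and 56.2 CPM at ZT6, above every other replicate. They were 9.27, 23.8 and 42.2 CPM at ZT2, 26.8, 41.7 and 27.8 CPM at ZT10 and 34.7, 20.4 and 38.0 CPM at ZT14. In the later night the levels were lower, 14.0, 13.3 and 3.66 CPM at ZT18 and 24.8, 9.59 and 19.998 CPM at ZT22. The ZT6 mean of 56.7 ± 7.27 CPM was 5.499 times the ZT18 mean of 10.3 ± 5.77 CPM, and *Fos* changed with time (adjusted p = 0.0113). At ZT14, where most of the other genes were highest, *Fos* stood at 31.1 ± 9.36 CPM, and these replicates overlapped those of ZT10. *Fos* (ENSMUSG00000021250) lies at chr12:85473890-85477273 on the plus strand.

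*Junb*, which encodes the JUN family partner in AP-1, followed *Fos* in its peak but with a wider range. Its 3 replicates held 16.9, 13.9 and 13.01 CPM at ZT6 against 0.283, 0.603 and 0.578 CPM 4 hr earlier at ZT2. They then stepped down, from 7.81, 5.38 and 9.11 CPM at ZT10 and 2.48, 4.59 and 7.09 CPM at ZT14 to 1.57, 0.771 and 2.20 CPM at ZT18. At ZT22 they were 0.507, 0.220 and 0.287 CPM, so that the highest mean (14.6 ± 2.05 CPM) was 43.2 times the lowest (0.338 ± 0.150 CPM). The rise from ZT2 to ZT6, across library pairs, was 4.88 ± 0.60 (SE) on the log2 scale (adjusted p = 7.97e-06). *Junb* changed with time with an adjusted p of 2.00e-06. Between ZT18 and ZT22 the level fell by 2.13 ± 0.55 on the log2 scale (adjusted p = 0.0118), a call lost without ZT22 replicate B (adjusted p = 0.0659) or C (0.0585). *Junb* (chr8:84974484-84978718, minus strand) overlaps *Prdx2* on the other strand along 173 of its 2301 exonic bases, and whether strand was used in counting is not given in the sources used here. Levels of *Prdx2* were 894 ± 112 CPM at ZT2, 613 ± 176 CPM at ZT6 and 706 ± 97.9 CPM at ZT10. In the dark they were 440 ± 17.9 CPM at ZT14, 542 ± 47.5 CPM at ZT18 and 884 ± 54.2 CPM at ZT22. Any part of *Prdx2* reads in the *Junb* counts was not tested.

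*Fosl2*, which encodes the FOS-related protein FRA-2, was highest 4 hr before *Fos*. Replicates A, B and C had 56.0, 88.7 and 66.1 CPM at ZT2, more than any of the other 15. The level was lower at ZT6, with 40.1, 38.697 and 23.9 CPM, and lower again at ZT10, with 9.61, 6.21 and 9.91 CPM. After lights off the replicates held 15.8, 17.7 and 15.2 CPM at ZT14, 7.55, 8.83 and 12.9 CPM at ZT18 and 16.3, 25.2 and 30.3 CPM at ZT22, a second, smaller rise before dawn. The mean fell from 70.3 ± 16.7 to 34.2 ± 9.01 CPM between ZT2 and ZT6, by 1.04 ± 0.29 (SE) on the log2 scale (adjusted p = 0.0109, and 0.0655 without ZT2 replicate B). It fell by a further 2.00 ± 0.30 between ZT6 and ZT10 (adjusted p = 0.0200), a step between timepoints of the same library pair. The rise between ZT18 and ZT22 was 1.30 ± 0.30 on the log2 scale (adjusted p = 0.00519). *Fosl2* (chr5:32135801-32157842, plus strand) changed with time with an adjusted p of 1.26e-06.

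*Fosb*, whose splice form delta FosB is known to accumulate with repeated activity, was near the limit of detection. A total of 511 reads fell on it over the 18 replicates, and 107 of the 108 reads at ZT6 were in replicate C. The 3 replicates held 2.15, 2.93 and 1.07 CPM at ZT14 and 1.09, 2.46 and 0.502 CPM at ZT22. Other levels were 0.0434, 0 and 5.06 CPM at ZT6, 0.704, 0.578 and 0.854 CPM at ZT18, 0.452, 0.215 and 0.116 CPM at ZT2 and 0.243, 0 and 0 CPM at ZT10. Without ZT6 replicate C the adjusted p for change with time was 0.010 in place of 0.186, so a single library decides this call. *Fosb* lies at chr7:19302696-19310051 on the minus strand.

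The 3 EGR genes, whose zinc finger proteins bind a shared GC-rich site, all had their highest mean at ZT14. *Egr1* (chr18:34859823-34864984, plus strand) was the most abundant of them, with 93.2, 58.8 and 81.9 CPM at ZT14. Its 3 replicates reached 37.0, 76.7 and 56.4 CPM at ZT22 and 42.3, 45.4 and 24.5 CPM at ZT2. Between these times it was low, with 14.6, 14.7 and 23.99 CPM at ZT6, 14.3, 18.2 and 31.3 CPM at ZT10 and 13.6, 19.6 and 23.7 CPM at ZT18. *Egr1* thus had high means at ZT14 (78.0 ± 17.5 CPM) and at ZT22 (56.7 ± 19.9 CPM), with ZT18 (18.96 ± 5.05 CPM) between them, and the replicates of ZT14 and ZT22 overlapped. The level rose by 1.87 ± 0.35 (SE) on the log2 scale from ZT10 to ZT14 (adjusted p = 0.00145), fell by 2.04 ± 0.36 to ZT18 (adjusted p = 0.0242) and rose by 1.58 ± 0.35 to ZT22 (adjusted p = 0.00403). The fall to ZT18, inside 1 library pair, was not called without any single ZT14 or ZT18 replicate (adjusted p between 0.0507 and 0.122). In those fits between 0 and 86 of all genes were called at this step, against 108 with every replicate.

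*Egr2* and *Egr3* had few reads outside ZT14. *Egr2* (chr10:67535475-67542188, plus strand) had 9.73, 9.46 and 10.1 CPM at ZT14, the tightest set of replicates among the genes highest then, against at most 2.06 CPM in any other replicate. Its replicates held 1.92, 1.51 and 0.270 CPM at ZT2, 0, 0.911 and 0.425 CPM at ZT10, 1.60, 0.161 and 0 CPM at ZT18 and 1.56, 2.06 and 1.58 CPM at ZT22. *Egr3* (chr14:70077203-70082614, plus strand) had 5.16, 4.59 and 3.93 CPM at ZT14 against at most 0.964 CPM elsewhere, with 0, 0.258 and 0.0771 CPM at ZT2 and 0.437, 0.0868 and 0.378 CPM at ZT10. Late in the night *Egr3* held 0.544, 0.964 and 0 CPM at ZT18 and 0.145, 0.404 and 0.932 CPM at ZT22. Neither gene had a single read in the 3 replicates at ZT6, which allows a level of up to 0.0459 CPM (3 counts over the 3 replicates, counting error only). Set against that floor, *Egr2* was at least 24.7-fold lower at ZT6 than at ZT2 (adjusted p = 0.00625) and *Egr3* at least 6.38-fold higher at ZT10 than at ZT6 (adjusted p = 0.344). The adjusted p for change with time was 0.00215 for *Egr2* and 0.00185 for *Egr3*.

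*Nr4a1*, which encodes the nuclear receptor NUR77, had 75.6, 31.8 and 62.0 CPM at ZT14, above all other replicates. A smaller midday level stood beside it, 18.7, 21.1 and 26.6 CPM at ZT6, between 3.85, 10.1 and 20.5 CPM at ZT2 and 9.32, 10.3 and 10.6 CPM at ZT10. The later replicates held 19.5, 16.7 and 21.8 CPM at ZT18 and 15.0, 8.05 and 10.8 CPM at ZT22. From ZT10 to ZT14 the level rose by 2.49 ± 0.45 (SE) on the log2 scale (adjusted p = 0.00108), and the midday step from ZT2 to ZT6 of 0.94 ± 0.43 was not called (adjusted p = 0.103). *Nr4a1* (chr15:101254269-101274795, plus strand) changed with time with an adjusted p of 0.00039.

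*Arc*, whose product moves glutamate receptors at activated synapses, had the widest range among the abundant genes of the night. Its replicates held 298, 94.8 and 235 CPM at ZT14 and 43.1, 47.2 and 126 CPM at ZT18, and these overlapped. At the other times they were between 1.70 and 19.7 CPM, with 1.70, 4.73 and 7.09 CPM at ZT2, 7.55, 5.21 and 5.58 CPM at ZT6, 11.6, 6.94 and 19.7 CPM at ZT10 and 8.19, 6.94 and 8.53 CPM at ZT22. *Arc* stayed above its daytime replicates through ZT18, where the replicates of *Egr1* and *Egr2* overlapped theirs. The ZT14 mean of 209 ± 104 CPM was 46.4 times the ZT2 mean of 4.51 ± 2.70 CPM. *Arc* rose by 4.04 ± 0.55 (SE) on the log2 scale from ZT10 to ZT14 (adjusted p = 9.64e-05) and fell by 3.19 ± 0.53 from ZT18 to ZT22 (adjusted p = 0.000383). *Arc* (chr15:74669083-74672570, minus strand) had the smallest adjusted p for change with time of the 10 genes, 2.26e-07.

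*Npas4*, a factor of active neurons, had 3.88, 6.88 and 5.39 CPM at ZT14, above all other replicates. Low levels spread widely among pools elsewhere, with 1.39, 0.0474 and 2.89 CPM at ZT6, 0.631, 1.78 and 0.614 CPM at ZT10, 2.88, 0.675 and 0.915 CPM at ZT18 and 1.27, 0.0367 and 0.394 CPM at ZT22. At ZT2 it had 1 read over the 3 replicates against 94 at ZT6, a ratio of 96.3 with a 95% counting interval of 16.9 to 3842, and this step was called (adjusted p = 0.00484). *Npas4* (chr19:4984355-4990316, minus strand) changed with time with an adjusted p of 0.00681.

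**Figure D2:**
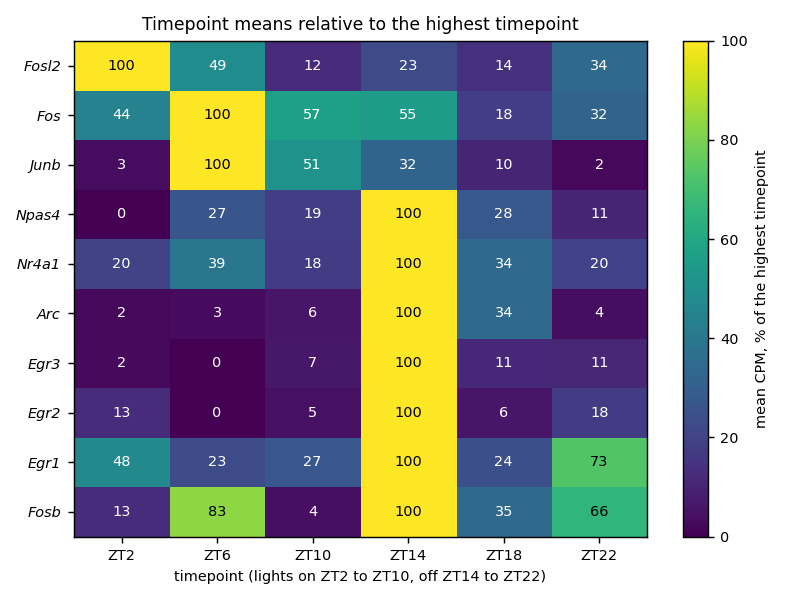
Mean CPM at each timepoint as a percent of the same gene's highest timepoint mean (colour and printed value), for the 10 genes ordered by the time of that highest mean. The ZT14 column holds 7 of the 10 highest values, *Fos* and *Junb* are at 55 and 32 there, and *Egr1* and *Fosb* return to 73 and 66 at ZT22.

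Per kilobase of exon the genes differed by about 2 orders of magnitude in level. Averaged over the 18 replicates, *Arc* held 17.04, *Fos* 12.3, *Egr1* 8.55 and *Nr4a1* 6.21 CPM per kilobase. *Fosl2* and *Junb* followed at 2.81 and 2.11 CPM per kilobase. The 4 least abundant were *Egr2* at 0.676, *Npas4* at 0.399, *Egr3* at 0.226 and *Fosb* at 0.164 CPM per kilobase, so the calls on these genes rest on far fewer reads.

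Of the 10 genes, 6 were called cycling, that is they also passed JTK_CYCLE, a rank test for a 24 hr wave, against 29.9% of all genes. By this exact permutation test the best wave peaked at ZT2 for *Fosl2* (p = 0.00672), at ZT6 for *Fos* (p = 0.00328) and at ZT10 for *Junb* (p = 0.0004). By the same exact test it peaked at ZT14 for *Arc* (p = 4.78e-05), *Npas4* (p = 0.0015) and *Egr3* (p = 0.0239). *Egr1*, with high means at both ZT14 and ZT22, had p = 1, and *Egr2* and *Nr4a1* both had p = 0.222 and *Fosb* p = 0.273 by the same exact test. *Egr1*, *Egr2* and *Nr4a1* therefore changed with time without passing the test for a single daily wave.

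Whether levels followed the lights was asked by setting the mean of the 3 light timepoints against the mean of the 3 dark ones. Of the 10 genes, 9 differed, against 23.8% of all genes, 3 of them higher in light (9.56% of all genes) and 6 lower (14.3%). *Fos* averaged 38.0 ± 17.5 CPM over the 9 light replicates and 19.8 ± 11.3 CPM over the 9 dark ones, a log2 difference of 0.99 ± 0.29 (SE, adjusted p = 0.0185). *Fosl2* was higher in light by 0.81 ± 0.17 (adjusted p = 0.00219) and *Junb* by 1.49 ± 0.31 (adjusted p = 0.002). The AP-1 genes of this set other than *Fosb* were thus higher in light on average, though not at every light timepoint. *Fosl2* had the lowest of its 6 timepoint means in the light, 8.58 ± 2.06 CPM at ZT10. At ZT2 the means of *Junb* (0.488 CPM) and *Fos* (25.1 CPM) were below those at ZT14 (4.72 and 31.1 CPM).

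The 6 genes lower in light were *Egr1*, *Egr2*, *Egr3*, *Nr4a1*, *Arc* and *Npas4*. *Arc* averaged 7.79 ± 5.20 CPM in light and 96.4 ± 106 CPM in dark, a log2 difference of -2.79 ± 0.31 (adjusted p = 7.68e-06), and *Egr1* had 25.5 ± 11.9 against 51.2 ± 29.2 CPM (-0.86 ± 0.20, adjusted p = 0.00477). *Egr2* averaged 0.559 against 4.03 CPM (adjusted p = 0.00474), *Egr3* 0.137 against 1.85 CPM (adjusted p = 0.00241) and *Npas4* 0.821 against 2.48 CPM (adjusted p = 0.0220). With ZT14 left out of the dark mean, a comparison added after the data were seen, 6 genes were called (18.5% of all genes), of which 3 were lower in light (*Egr2*, *Egr3* and *Arc*, against 10.5% of all genes) and the same 3 were higher (7.93%). *Egr1* then differed by -0.44 ± 0.22 (adjusted p = 0.183), *Nr4a1* by -0.11 ± 0.28 (adjusted p = 0.840) and *Npas4* by -1.60 ± 0.77 (adjusted p = 0.163), so the calls of these 3 genes between light and dark rest on ZT14. *Nr4a1* was also the weakest with ZT14 kept (-0.75 ± 0.25, adjusted p = 0.0357), and lost its call on leaving out any 1 of 11 replicates. Of the 3 genes still lower in light without ZT14, *Arc* had 72.1 CPM at ZT18 but 7.89 CPM at ZT22, near its light mean. *Egr2* averaged 0.559 CPM in light and 1.16 CPM over ZT18 and ZT22, and *Egr3* 0.137 and 0.498 CPM, both with 0 reads at ZT6. The *Egr2* mean at ZT18 (0.587 CPM) was below that at ZT2 (1.23 CPM).

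The steps between consecutive timepoints, which share samples with one another, show when the levels moved. From ZT2 to ZT6, across library pairs, the direction was mixed, with 5 of the 10 genes called (33.8% of all genes). Of these, 2 were higher, *Junb* and *Npas4* (17.5% of all genes), and 3 lower, *Fosl2*, *Egr1* and *Egr2* (16.3%). The fall of *Egr1*, by 1.07 ± 0.35 on the log2 scale (adjusted p = 0.0240), was lost without ZT2 replicate A or B or ZT6 replicate A or B (adjusted p between 0.0700 and 0.0914), and on the reads recovered from the second table (adjusted p = 0.0635). Between ZT6 and ZT10, inside a library pair, *Fosl2* was the 1 gene called (0.0475% of all genes in either direction and 0.0211% lower). That call was lost without ZT6 replicate B or any of the ZT10 replicates (adjusted p between 0.0592 and 0.168), and with the replicate letters as a block (adjusted p = 0.0563).

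Across lights off, from ZT10 to ZT14, 5 genes were higher and 0 lower, against 16.8% of all genes in either direction and 9.31% higher. *Arc*, *Nr4a1*, *Egr1*, *Egr2* and *Fosl2* were called, and in 8 of the 10 genes every ZT14 replicate was above every ZT10 replicate, against 25.3% of all genes. The exceptions were *Fos* and *Junb*, whose replicates overlapped. *Egr2* rose by 4.43 ± 1.34 on the log2 scale (adjusted p = 0.0326), a call lost without any single ZT10 or ZT14 replicate (adjusted p between 0.0527 and 0.100). *Fosl2* rose by 0.92 ± 0.30 (adjusted p = 0.0410), a call lost under 13 of 25 alternatives, and *Egr3* differed by 3.91 ± 1.32 (adjusted p = 0.0538). These timepoints are in different library pairs.

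From ZT14 to ZT18, inside a library pair, *Egr1* was the 1 gene called, lower at ZT18 (0.570% of all genes in either direction and 0.412% lower). All 10 estimates were lower at ZT18, as for 50.6% of all genes, with a median log2 difference of -1.62 against -0.01 over all genes. In 9 of the 10 genes, *Arc* being the exception, every ZT18 replicate was below every ZT14 replicate, against 11.6% of all genes. An unadjusted p under 0.05 in that direction was found for 8 of the 10, against 7.09% of all genes, and DESeq2 called 5 of the 10, against 4.46% of all genes. The edgeR adjusted p and log2 difference ± SE were, in turn, 0.105 and -1.55 ± 0.44 for *Nr4a1*, 0.150 and -1.65 ± 0.52 for *Junb*, 0.155 and -1.58 ± 0.51 for *Fos* and 0.161 and -1.54 ± 0.50 for *Arc*.

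**Figure D3:**
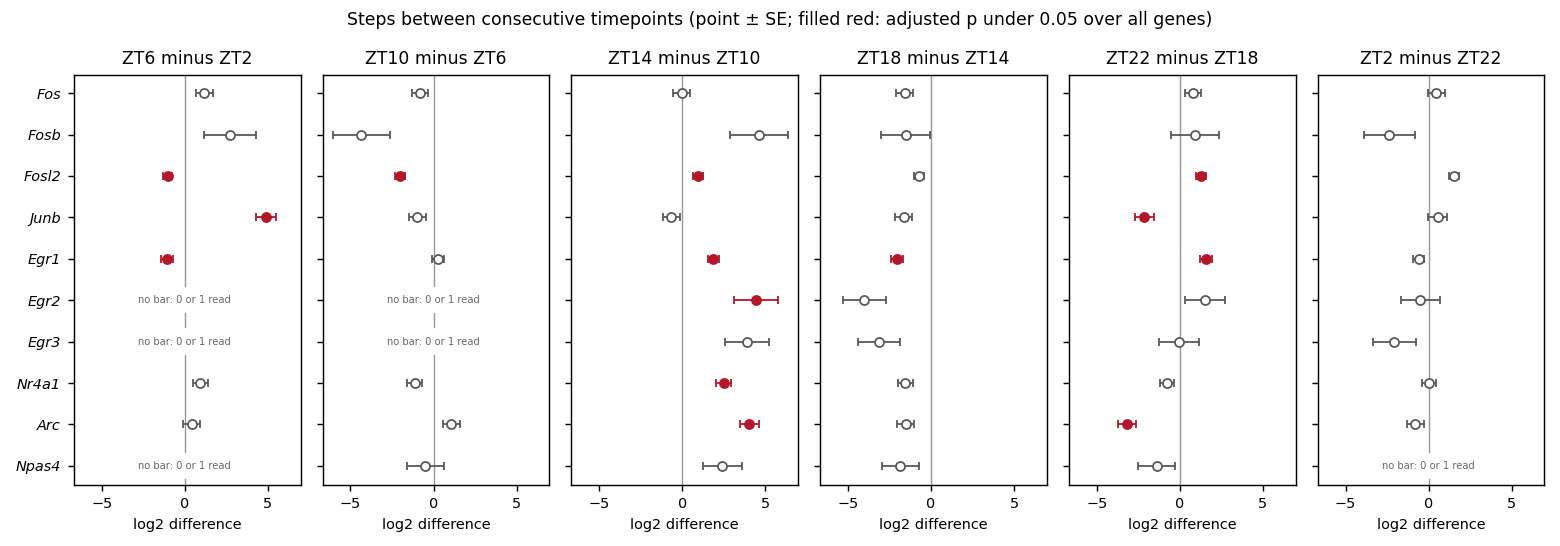
Fitted log2 difference ± SE of the 10 genes at each of the 6 steps between consecutive timepoints, filled red where the edgeR adjusted p over all genes was under 0.05, with no value drawn where one side had 0 or 1 read in all. Every point lies left of 0 in the step from ZT14 to ZT18, and in the step from ZT10 to ZT14 the filled points all lie to the right.

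From ZT18 to ZT22, across library pairs, 4 genes were called (18.1% of all genes), *Egr1* and *Fosl2* higher (6.27%) and *Arc* and *Junb* lower (11.9%). *Arc* went from 72.1 ± 46.7 to 7.89 ± 0.835 CPM, while *Egr1* went from 18.96 ± 5.05 to 56.7 ± 19.9 CPM. From ZT22 to ZT2, inside a library pair and across lights on, edgeR called 0 of the 10 genes (0.0317% of all genes). At an unadjusted p under 0.05, 1 gene was higher (*Fosl2*, by 1.55 ± 0.30, adjusted p = 0.0853, against 1.59% of all genes) and 1 lower (*Npas4*, with 47 reads at ZT22 and 1 at ZT2, against 2.00%). DESeq2 called *Fosl2* alone (0.222% of all genes). All *Fosl2* replicates at ZT2 were above those at ZT22.

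Over the 18 replicates, which share timepoints, the log2 levels of some genes moved together. Pearson r was 0.80 for *Egr1* with *Egr2*, 0.78 for *Nr4a1* with *Arc*, 0.73 for *Egr2* with *Egr3* and 0.71 for *Egr3* with *Arc*, and -0.65 for *Fosl2* with *Npas4*. After the timepoint means were taken out, r stayed at 0.73 for *Nr4a1* with *Arc* but was 0.12 for *Egr1* with *Egr2* and 0.17 for *Egr2* with *Egr3*. *Fos* and *Nr4a1* had r = 0.34 over all replicates and 0.65 within timepoints. Pools with more *Nr4a1* than others of their timepoint thus tended to hold more *Arc* and more *Fos*. These were the highest within-timepoint values among all pairs of the listed genes, and *Fos* with *Arc* had r = 0.17. The same replicate was the lowest of the 3 for *Nr4a1*, *Arc* and *Fos* at ZT2 (A), ZT14 (B) and ZT22 (B), but not at ZT6, ZT10 or ZT18. At ZT18 replicate C was the highest in *Nr4a1* (21.8 CPM) and *Arc* (126 CPM) but the lowest in *Fos* (3.66 CPM).

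**Figure D4:**
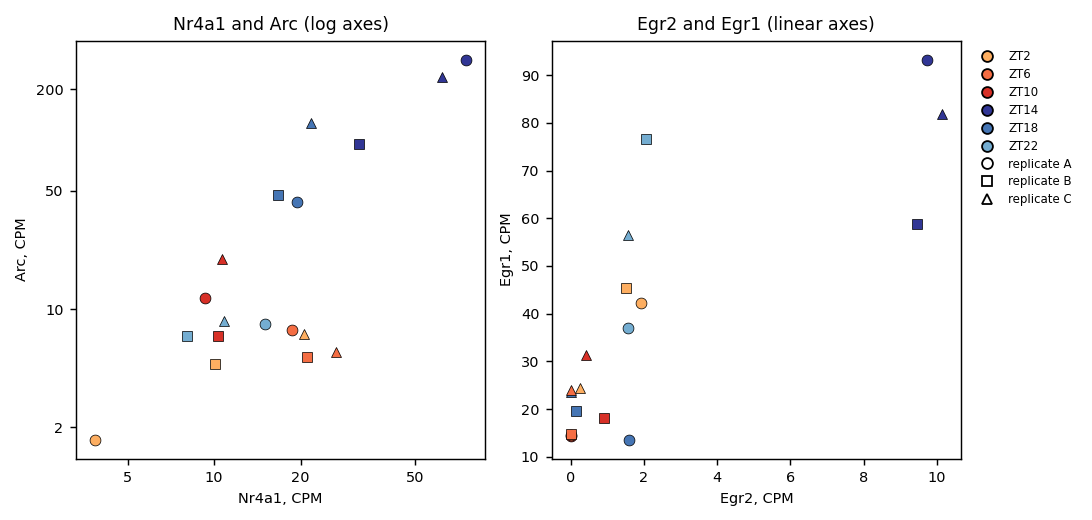
Level in each of the 18 replicates, coloured by timepoint and with a marker for the replicate letter: *Arc* against *Nr4a1* (CPM, log axes) and *Egr1* against *Egr2* (CPM, linear axes). At ZT14 replicates A and C are above replicate B in both *Nr4a1* and *Arc*, and ZT22 replicates reach *Egr1* levels of ZT14 at *Egr2* levels of at most 2.06 CPM.

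The genes most like each member over the 18 replicates, by Pearson r of log2 CPM, are given as a description, 2 for each. They were *Aatk* (r = 0.955) and the SCN neuropeptide gene *Avp* (0.954) for *Junb*, *Scn8a* (0.931), a sodium channel gene, and *Homer1* (0.913), itself induced by synaptic activity, for *Egr1*, and *Rorb* (0.882), a nuclear receptor gene, and *Pgap1* (0.862) for *Fosl2*. For *Arc* they were *Gm14032* (0.939) and *Fbxl18* (0.930), for *Nr4a1* *Adgrl1* (0.922) and *Lrp1* (0.883), and for *Fos* *Ino80* (0.859) and *Gm15138* (0.853). *Egr2* was nearest to *Fam129a* (0.903) and to ENSMUSG00000044060 (0.878), *Egr3* to *Phyhip* (0.880) and *Gm6517* (0.874), *Npas4* to *Sugp2* (0.857) and *Tmem8b* (0.852), and *Fosb* to *Gigyf2* (0.791) and *Sgip1* (0.784).

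Other genes of the same pathway were counted from lists. Of the 8 other AP-1 and partner genes, 4 changed with time and 3 were cycling, near the 44.0% and 29.9% of all genes, and 3 were higher in light (9.56% of all genes) and 0 lower. *Jund* had 10.9 ± 0.404 CPM at ZT2, 46.8 ± 0.402 CPM at ZT6, 46.3 ± 3.24 CPM at ZT10 and 9.88 ± 0.953 CPM at ZT22 (adjusted p = 5.49e-08), and *Jun* had 3.87 ± 0.701 CPM at ZT2, 16.2 ± 5.22 CPM at ZT6 and 18.5 ± 4.49 CPM at ZT10 (adjusted p = 0.000154). The 3 JUN family genes were thus all highest at ZT6 or ZT10. Of the 5 other EGR and NR4A genes and EGR corepressors, 2 changed, no larger a share than the 44.0% of all genes, both higher in light (9.56%). *Nr4a3*, a close relative of *Nr4a1*, had 43.2 CPM at ZT6 and 13.6 CPM at ZT14 (adjusted p = 0.000153), and the corepressor gene *Nab1* had 28.1 CPM at ZT6 and 15.0 CPM at ZT14 (adjusted p = 0.00269).

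Of the 22 other rapidly induced genes 12 changed with time (44.0% of all genes) and 11 were cycling (29.9%). Of the 22, 6 were highest at ZT14, where 18.6% of all genes were, and 9 at ZT6 or ZT10 (33.7%). *Gadd45g*, a stress-induced gene, stood at 2.94, 185, 319, 201, 137 and 3.70 CPM from ZT2 to ZT22 (adjusted p = 1.72e-09). The low means lie in the library pair of ZT2 and ZT22, so time and any batch following the pairs cannot be told apart. *Dusp6*, which encodes a phosphatase acting on ERK, stood at 64.8 CPM at ZT14 and 6.59 CPM at ZT6 (adjusted p = 2.28e-07). Of the 14 delayed activity-induced genes 8 changed with time (44.0% of all genes), and 3 were higher (9.31%) and 1 lower (7.52%) at ZT14 than at ZT10. *Vgf*, a neuropeptide precursor gene, was highest at ZT6 (200 CPM, against 22.7 CPM at ZT22, adjusted p = 5.21e-08), and *Plk2*, a kinase gene of synaptic scaling, at ZT14 (260 CPM, against 64.7 CPM at ZT22, adjusted p = 5.48e-06). Among upstream regulators 17 of 18 were in the table, and 10 changed with time (44.0% of all genes), while 6 were higher (9.31%) and 0 lower (7.52%) at ZT14 than at ZT10. The CREB coactivator gene *Crtc1* had 148 CPM at ZT14 and 5.002 CPM at ZT22 (adjusted p = 4.52e-08). On the log2 scale it differed by 3.49 from ZT2 to ZT6, -4.26 from ZT18 to ZT22 and 0.16 from ZT22 to ZT2. *Crtc1* was thus also low in the library pair of ZT2 and ZT22. *Mef2c* had 552 CPM at ZT22 and 88.9 CPM at ZT6 (adjusted p = 6.00e-06).

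Marker genes of SCN neurons and of other cell types moved across the same timepoints. None of the 51 markers was at 0 in all libraries. The 11 SCN neuron markers summed to between 1861 and 2498 CPM at ZT14 and between 5717 and 6419 CPM at ZT6. Of these 11, 10 changed with time (44.0% of all genes). *Vip* had means of 963 CPM at ZT14 and 2756 CPM at ZT6, and *Lhx1*, not called (adjusted p = 0.138), 169 and 230 CPM. The 6 oligodendrocyte markers summed to between 4716 and 5903 CPM at ZT14 and between 1619 and 2002 CPM at ZT10. The 7 markers of telencephalic excitatory neurons, cells in which *Arc*, *Egr1* and *Npas4* are known to be strongly induced, summed to between 974 and 1547 CPM at ZT14 and between 130 and 770 CPM in the other replicates. Most of this was *Camk2a*, at 1033 ± 262 CPM at ZT14. Without it the other 6 summed to between 99.8 and 212 CPM at ZT14 and between 57.4 and 230 CPM at ZT22, where *Arc* was between 6.94 and 8.53 CPM and *Egr2* at most 2.06 CPM. The means of these 6 markers were 59.5, 19.1, 54.6, 140, 44.1 and 151 CPM from ZT2 to ZT22, high at ZT14 and ZT22 as were those of *Egr1* (78.0 and 56.7 CPM) and *Fosb* (2.05 and 1.35 CPM, apart from ZT6 replicate C). Like the markers, *Egr1* had its lowest means at ZT6 and ZT18 (17.8 and 18.96 CPM). The part of these cell markers in the ZT14 levels was not tested.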

How the data were processed

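The authors amplified about 1 ng of SCN RNA per replicate with the SMARTer protocol and sequenced it as paired-end reads. Per the labels' processing notes, reads were aligned with GSNAP to mm10 (GRCm38) and counted per gene with HTSeq 0.5.4p1. The authors deposited counts for 30031 genes, raw whole numbers with the 3 lanes already summed per replicate, and none of the sample columns was left unused (0 columns). They also deposited a table of normalized signal, counts divided by a size factor per column (DESeq2). In it 100% of values were whole multiples of 1 read within 0.01 reads, and edgeR called 9367 of 20822 genes changed with time on these recovered reads, against 8343 of 18941 on the counts, which were used throughout. For ZT6 and ZT10 only between 8.76% and 12.2% of genes had identical reads in both tables.

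The counts were fitted in edgeR 4.0.16 (R 4.3.3) with one mean per timepoint, TMM scaling after a filter requiring a read in more than 6 replicates. The quasi-likelihood test gave the change with time, the contrasts and their adjusted p-values. A gene was called cycling when it also passed JTK_CYCLE (24 hr, 6 lags, Bonferroni over lags, exact null distribution), written anew in Python 3.11.15 on log2 CPM with a prior count of 2. On simulated data for the time test (18941 genes, fold at 1 timepoint), 32% of genes changed by 1 on the log2 scale and 77% of those changed by 2 were recovered. The changed genes were drawn only from genes above a minimum mean level, which *Fosb*, *Egr3* and *Npas4* did not reach. Folds against a timepoint with 0 reads used a floor of 3 counts over its replicates. Positions and exon lengths are from GENCODE M21 (GRCm38), promoter sequences from RefSeq (GRCm38.p6), and symbols matched 97.2% of identifiers.

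The 10 genes were all named, with the 2 genes nearest to each by correlation (restricted to a mean count of 10 or more) and, from each list, the 2 genes with the smallest time-test p. The members, lists, markers and tests were chosen with earlier results of these data known. Alternatives were DESeq2 1.42.0, its size factors or upper-quartile scaling, 2 other filters on low counts, the replicate letter as a block, the recovered reads, each replicate left out in turn, and, for cycling, cosinor regression (limma 3.58.1), another adjustment and the authors' normalized values.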

Additional observations from a re-analysis of the deposited data

How the results depend on the processing

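No difference past the threshold changed direction under the alternatives run. Of the 45 differences of the 10 genes not past it, 9 took the opposite sign under at least 1 alternative, with no call. *Fosb* without ZT6 replicate C differed by -3.27 in place of 2.70 from ZT2 to ZT6 and by 1.64 in place of -4.34 from ZT6 to ZT10, and *Fos* from ZT10 to ZT14 by 0.18 in place of -0.05 without ZT10 replicate B or ZT14 replicate B (log2). The number of the 10 genes called with time was 5 when at least 10 counts were required in every replicate, a filter that only 5 of them passed, and the same filter gave 3 cycling genes, 5 that differed between light and dark, 3 from ZT2 to ZT6 and 1 from ZT22 to ZT2. DESeq2 in place of edgeR called 2 genes from ZT6 to ZT10, 5 from ZT14 to ZT18 and 1 from ZT22 to ZT2, and no filter on low counts gave 1 from ZT22 to ZT2. With the replicate letter added as a replicate block, 0 genes were called from ZT6 to ZT10, and the cause was not tested. Leaving out 1 replicate at a time gave 9 to 10 genes changed with time, 6 to 7 cycling, 7 to 10 for light against dark, 3 to 7 from ZT2 to ZT6, 0 to 1 from ZT6 to ZT10, 3 to 7 from ZT10 to ZT14, 0 to 2 from ZT14 to ZT18, 3 to 4 from ZT18 to ZT22 and 0 to 1 from ZT22 to ZT2. The count from ZT2 to ZT6 fell to 3 without ZT2 replicate B, and that from ZT10 to ZT14 to 3 without ZT10 replicate B or C or any ZT14 replicate. The count from ZT14 to ZT18 was 0 without any single replicate of these times and 2 without ZT2 replicate A, and that from ZT22 to ZT2 was 1 without ZT18 replicate C. Without a replicate of ZT14 or ZT18, between 0 and 86 of all genes were called from ZT14 to ZT18, against 108 with every replicate. Light against ZT18 and ZT22 alone, added after the data were seen, gave 6 genes in place of 9.

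Over the 861 single values of named genes under the alternatives, 808 kept their side of the threshold, 52 were no longer called and 1 became called. *Npas4* lost its call between light and dark without ZT2 replicate B (adjusted p = 0.0506) or ZT22 replicate A (0.0609). Upper-quartile scaling shifted the median of all genes by -0.15 from ZT10 to ZT14 and by 0.15 from ZT18 to ZT22. The replicate letters did not pair the samples: deviations from timepoint means of same-letter replicates had r between -0.191 and 0.104 over 45 pairs, and 6 of 18 replicates were closest to their own letter. Depth limits *Fosb*, *Egr3*, *Npas4* and *Egr2* most, and 3 replicates limit each step.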

Other observations

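Among the other rapidly induced genes, 3 were named after their values were seen, for their known response to light and cAMP in the SCN. *Sik1*, a kinase gene that acts on CREB coactivators, had its highest mean at ZT6, 77.9 CPM, with 33.7 CPM at ZT2, 21.8 CPM at ZT10 and 9.44 CPM at ZT18 (edgeR adjusted p = 3.26e-07). *Per1*, a clock gene with CRE sites in its promoter, followed with 70.0 CPM at ZT6, 16.03 CPM at ZT2 and 8.98 CPM at ZT22 (adjusted p = 1.37e-06). *Crem*, a CREB family gene, was highest earlier, with 88.0 CPM at ZT2, 64.7 CPM at ZT6 and 27.6 CPM at ZT14 (adjusted p = 4.59e-05). The first of these timings is that of *Fos* and *Junb*, the last that of *Fosl2*.

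*Nr4a1*, with 22.2 CPM at ZT6 and 56.5 CPM at ZT14, and *Nr4a3*, with 43.2 CPM at ZT6 and 13.6 CPM at ZT14, had their higher means at opposite ends of that interval, and the difference between these genes was not tested.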
